A study of Mus musculus with 617 samples.

Results

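Epiblast cells of mouse embryos at embryonic day 5.5 (E5.5) were described from single-cell RNA levels. The cells were every column of the deposited table of postimplantation cells, 83 of the 617 cells of the series, and no measured value was used to choose them. The 63 male and 20 female cells came from embryos with a C57BL/6J father and a C57BL/6J mother, and carried no labelled treatment or transgene. The labels tie no cell to an embryo, so the 83 cells count as 1 sample, and no comparison below carries a test. Every female cell has a higher number in its title than every male cell, so sex and any difference between these runs cannot be told apart.

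The study followed 1 male and 1 female embryonic stem (ES) cell line through developmental states, with embryo cells beside them, so each culture of a sex is a single line. The other groups all came from crosses of C57BL/6J females with CAST/EiJ males. Those compared with E5.5 were 23 epiblast cells at E4.5 with no labelled sex, and 63 cells labelled as a male Epi culture, epiblast stem cells kept in Activin A and FGF2. ES cells in 2i and LIF or in serum and LIF, cells at E3.5 labelled as inner cell mass (ICM), female Epi cells and cells labelled motor neuron were used only where the spread between cells is compared. An exception is Pou5f1 in female Epi cells, which is given beside that of male Epi cells.

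The epiblast is the tissue that forms the embryo proper. After implantation it becomes a polarised epithelium that keeps the pluripotency factor Pou5f1, loses factors of the naive state found before implantation, and gains Otx2, Fgf5, Pou3f1 and the de novo DNA methyltransferases. It lies inside the visceral endoderm, a layer rich in apolipoproteins and transport proteins, and against the extraembryonic ectoderm, and Nodal, FGF, BMP and Wnt signals from and to these tissues set up the primitive streak on its future posterior side.

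Promoters of 5 genes whose levels are described below are shown as examples of many and few CG dinucleotides, the letters that DNA methyltransferases act on. Each run is the 250 bases before the gene's start in RefSeq (GRCm38.p6), written 5′ to 3′ with each CG in capitals. CG reads the same on both strands and overlaps no other motif searched. Dnmt3b and Fgf5 are genes of the postimplantation epiblast, Apoa1 and Afp are secreted products of visceral endoderm, and Rhox5 is an X-linked homeobox gene of extraembryonic tissue.

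Dnmt3b, chr2:153649199-153649448, + strand: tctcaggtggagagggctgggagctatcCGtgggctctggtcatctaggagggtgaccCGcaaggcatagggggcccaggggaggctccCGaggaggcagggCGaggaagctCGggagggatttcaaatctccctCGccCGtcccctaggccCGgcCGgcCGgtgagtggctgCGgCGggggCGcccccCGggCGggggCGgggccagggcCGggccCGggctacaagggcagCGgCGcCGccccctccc

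Fgf5, chr5:98253934-98254183, + strand: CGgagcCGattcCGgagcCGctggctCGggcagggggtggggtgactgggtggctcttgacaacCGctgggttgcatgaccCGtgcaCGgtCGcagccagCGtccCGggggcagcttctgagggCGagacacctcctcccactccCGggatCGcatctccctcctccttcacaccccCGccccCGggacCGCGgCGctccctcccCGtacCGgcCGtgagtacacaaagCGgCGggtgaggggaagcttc

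Apoa1, chr9:46228380-46228629, + strand: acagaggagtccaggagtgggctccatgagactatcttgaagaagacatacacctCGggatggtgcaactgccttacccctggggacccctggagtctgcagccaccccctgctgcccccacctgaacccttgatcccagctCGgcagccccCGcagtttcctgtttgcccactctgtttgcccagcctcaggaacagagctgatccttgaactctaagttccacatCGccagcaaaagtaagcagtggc

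Rhox5, chrX:37754358-37754607, + strand: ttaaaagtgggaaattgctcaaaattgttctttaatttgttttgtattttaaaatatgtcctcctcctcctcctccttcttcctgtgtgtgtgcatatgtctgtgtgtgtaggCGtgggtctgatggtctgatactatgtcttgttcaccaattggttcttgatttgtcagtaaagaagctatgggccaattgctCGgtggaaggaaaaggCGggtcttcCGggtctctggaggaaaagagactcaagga

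Afp, chr5:90490464-90490713, + strand: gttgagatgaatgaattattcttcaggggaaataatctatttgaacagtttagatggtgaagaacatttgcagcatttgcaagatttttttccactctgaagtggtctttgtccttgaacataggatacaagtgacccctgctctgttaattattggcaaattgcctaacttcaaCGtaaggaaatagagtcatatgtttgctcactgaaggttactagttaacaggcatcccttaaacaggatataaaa

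Dnmt3b has 21 CG in this window and Fgf5 has 24, against 4 in Apoa1, 4 in Rhox5 and 1 in Afp. Of 21533 protein-coding genes measured, 13643 (63.4%) matched exactly 1 promoter entry, and 92.3% of these windows hold at least 1 CG. Genes with 0 to 2 CG were 23.7% of them. Among these, 78.7% reached 1 FPKM in no E5.5 cell and 0.651% in all 83. Among the 21.2% of genes with 21 or more CG, 3.98% reached it in no cell and 31.1% in all cells. Among genes averaging at least 10 FPKM, 13 of 44 (29.5%) with 0 to 2 CG had a spread between cells of at least 3 times the trend described below, against 4.22% of those with 21 or more. Among the gene lists used below the median was 4.5 CG for visceral endoderm (8 matched genes), 11 for primed genes (10), 14 for glycolysis (10), 17 for extraembryonic ectoderm (11), 19 for G2/M (21) and 22 for BMP and Id genes (9). These medians cover all matched genes of a list, also those too low for their spread to be judged. Of the BMP and Id genes called uneven below, Bmp4 had 11 CG and Id2 and Id3 had 18 each, and Id1 was not matched. A CG is a match of letters only, since methylation was not analysed here.

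Levels were FPKM (fragments per kilobase of transcript, scaled to a total that is not given). FPKM is per length and so allows genes to be compared within a cell. A gene is said to be detected in a cell at 1 FPKM or more. The 83 cells detected 8499 to 12266 genes, with a median of 10671, and their FPKM summed to between 881148 and 1331213. Read depth is unknown, so values near 1 FPKM are imprecise. Intervals for shares of cells are exact Clopper-Pearson 95% intervals and cover counting error only, as do the limits for shares of 0, which are 3 cells of the total. Pearson r of log2(FPKM + 1) between pairs of cells ran from 0.825 to 0.9617, with a median of 0.9071, and no cell name was shared between tables.

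The epiblast markers were present in nearly every cell. All 4 of Pou5f1, Otx2, Fgf5 and Pou3f1 were detected together in 80 of 83 cells, which is 96.4% (interval 89.8 to 99.2%). Pou5f1 (ENSMUSG00000024406, chromosome 17), the POU factor that pluripotent cells need, ranged from 97.1 to 1098 FPKM with a median of 730.2. Otx2 (ENSMUSG00000021848, chromosome 14), a homeobox factor of the postimplantation epiblast, ranged from 10.5 to 322 FPKM with a median of 125.6. Both were detected in all 83 cells. Fgf5 (ENSMUSG00000029337, chromosome 5), a growth factor gene of the same stage, had a lowest value of 0.806, a median of 88.4 and a highest value of 188 FPKM. It was detected in 82 cells, 98.8% (93.5 to 99.97%). Pou3f1 (ENSMUSG00000090125, chromosome 4), a POU factor of primed cells, was far lower, from 0.142 to 32.5 FPKM with a median of 10.1, and was detected in 81 cells, 97.6% (91.6 to 99.7%).

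**Figure D1:**
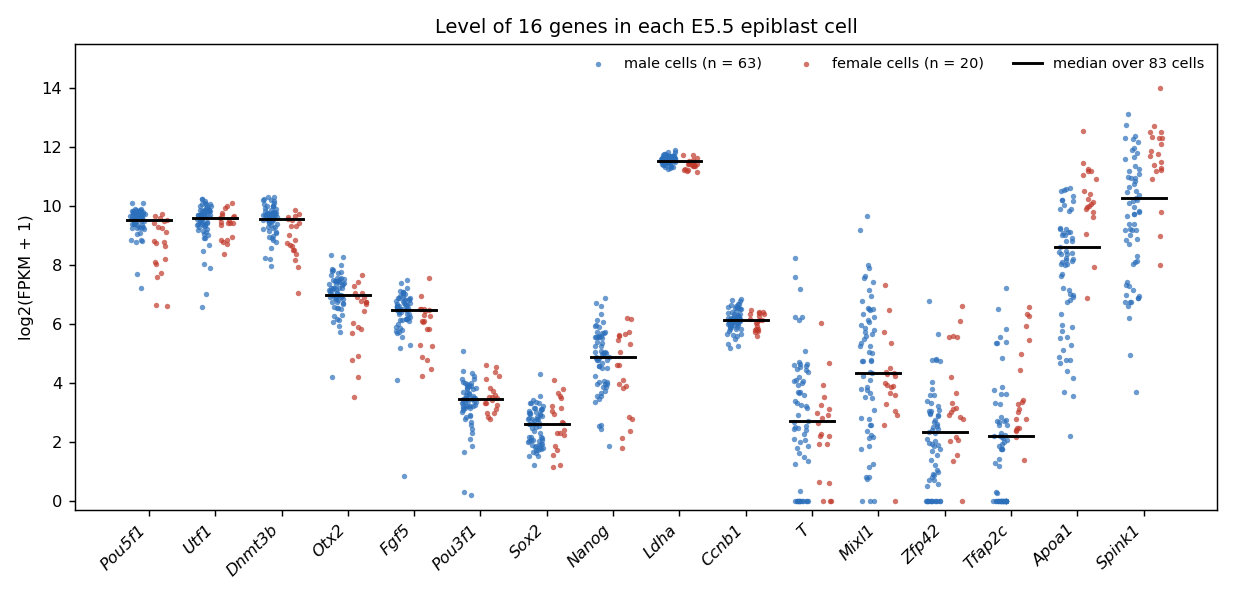
Level of 16 genes as log2(FPKM + 1) in each of 63 male (blue) and 20 female (red) E5.5 epiblast cells, with the median of all 83 cells as a black line. Ldha and Ccnb1 form narrow bands and no cell is near 0 for Pou5f1, Utf1 or Dnmt3b, while T, Mixl1, Zfp42, Tfap2c, Apoa1 and Spink1 range from cells at or near 0, or at low values, to high ones.

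Other genes of the primed state filled out the same picture. Of a list of 26 primed or formative genes, 13 were detected in all 83 cells and all 26 in at least 50% of them. Across all protein-coding genes 3962 of 21533, or 18.4%, were detected in all cells. Dnmt3b, a de novo DNA methyltransferase, ranged from 132.3 to 1279.7 FPKM with a median of 749. Dnmt3a, the second such enzyme, ranged from 37.3 to 946 with a median of 431. These are among the highest levels of any regulator listed here. The cell surface carbonic anhydrase Car14 had a median of 192 FPKM and the cationic amino acid transporter Slc7a3 one of 327, both in every cell. The transcription factors Sox3, Foxd3 and the cadherin gene Cdh2 were the least widespread of the list, detected in 50, 47 and 49 cells.

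Of 13 core pluripotency genes, 11 were detected in all 83 cells. Utf1, a chromatin factor of pluripotent cells, ran from 93.3 to 1213 FPKM with a median of 767, as high as Pou5f1. Tdgf1, the Nodal co-receptor Cripto, ran from 11.8 to 611 with a median of 122.7. Sox2, the usual partner of Pou5f1 on DNA, was low in every cell, at 1.23 to 18.6 FPKM with a median of 5.11. Nanog, which belongs to both the core and the naive list, was detected in all cells at 2.50 to 115.5 FPKM, with a median of 28.1. Dppa4 and Lin28b were the 2 core genes missing from some cells, detected in 57 and 78.

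The markers Pou5f1, Otx2 and Fgf5 moved together from cell to cell, and Pou3f1 did not. Spearman rho over the 83 cells was 0.53 for Pou5f1 with Otx2, 0.53 for Pou5f1 with Fgf5 and 0.46 for Otx2 with Fgf5. Pou3f1 had rho of -0.21 with Pou5f1, -0.01 with Otx2 and 0.01 with Fgf5. These are descriptions, since the cells share 1 table and their depths are unknown. Every rho given here and below pools both sexes and both clusters of cells described further on. Pou5f1, Otx2, Fgf5 and Dnmt3b all had lower medians in the smaller cluster. How far the rho values come from that difference was not tested, and rho within a cluster or a sex is not given. Among 5995 protein-coding genes averaging at least 10 FPKM, those most like Pou5f1 were the splicing regulator Ptbp2 (rho 0.62), the actin-bundling protein gene Pls3 (0.62), the Polycomb gene Phc1 (0.59), Ssbp2 (0.58) and Dnmt3b (0.58). The genes most like Otx2 were the deubiquitinase gene Usp28 (0.69), Dnmt3b (0.68), Dnmt3a (0.66), the ETS factor Etv5 (0.64) and Phc1 (0.62). Both methyltransferase genes and Phc1 thus appeared beside the markers, and 1% of all genes compared had a rho above 0.45 with Pou5f1 or above 0.49 with Otx2. For Fgf5 the nearest genes were Cd24a (0.60), Tmem59l (0.58), Sema6a (0.57), Marcks (0.57) and Rbpms2 (0.57). The genes nearest to Pou3f1 were of another kind, the mitochondrial ribosomal gene Mrps24 (0.53), the copper chaperone gene Atox1 (0.43), Alad (0.43), Polr2j (0.42) and Ndufa11 (0.40).

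Naive pluripotency genes were mostly absent or confined to some cells. Nr5a2 and Tcl1 were listed at 0 in all 83 cells, which allows a share of up to 3.61% (3 cells of 83). Prdm14 and Tet2 were each detected in 1 cell. The Krüppel-like factor genes Klf2, Klf4 and Klf5 were detected in 14, 21 and 33 cells with highest values of 7.33, 5.13 and 17.9 FPKM. The nuclear receptor gene Esrrb was detected in 34 cells and reached 42.2 FPKM, and Tfcp2l1 was detected in 25. Of the 15 naive genes 4 were detected in at least 50% of cells, 26.7% beside 43.5% of all protein-coding genes, and 1 in all 83. Zfp42 (Rex1), a zinc finger gene widely used to report the naive state, was among these 4. It was detected in 60 cells, 72.3% (61.4 to 81.6%), from 0 to 109.1 FPKM with a median of 4.09. Zfp42 was low where Pou5f1 was high (rho -0.69), and high where Rhox5 (0.77), Esrrb (0.67) and the trophectoderm factor Tfap2c (0.66) were high. With Nanog its rho was -0.26, so the naive list did not vary as a block. Taken as lists, naive and extraembryonic ectoderm genes had a rho of 0.86. Esrrb reached 42.2 FPKM in the cell with the highest Zfp42, which also had the highest sum of extraembryonic ectoderm markers. Whether cells with these genes keep a naive state was not tested.

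The most abundant protein-coding transcripts, outside ribosomal protein and mitochondrial genes, served nuclear transport, chaperoning, the cytoskeleton, translation and energy. Ran, the GTPase of nuclear transport, had a mean of 5135 FPKM, and the chaperone gene Hsp90ab1 a mean of 4505. Eif5a, a translation factor, stood out for evenness, at 2048 to 2855 FPKM with a coefficient of variation (CV, the SD divided by the mean) of 0.07. Of 17 glycolysis genes 14 were detected in all cells. Ldha, which turns pyruvate into lactate, ranged from 2287 to 3867 FPKM with a median of 2978, and the enolase gene Eno1 from 2126 to 3620 with a median of 2775. The lowest cell thus held more than 50% of the level of the highest cell for both enzymes. The glucose transporter genes Slc2a1 and Slc2a3 were less even, at 168 to 1490.0 and 18.5 to 787 FPKM. Several of these enzymes have near-identical pseudogene copies that fragment assignment could split, so their absolute levels are uncertain.

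Cell cycle genes were high and even. Of 25 G2/M genes 24 and of 20 G1/S genes 18 were detected in all 83 cells. Ccnb1 (cyclin B1), which cycling cells accumulate before mitosis, ranged from 35.01 to 113.2 FPKM with a median of 69.1 and a CV of 0.24. Cdk1, its kinase, ranged from 403 to 1253 with a median of 739. Birc5 (survivin) had a CV of 0.17 and Cdk4, the kinase of the G1 cyclins, a mean of 2579 FPKM with a CV of 0.14. No cell was at 0 for any of these 4 genes. The inhibitor gene Cdkn1a (p21) behaved otherwise, detected in 56 cells with a median of 5.68 and a highest value of 421 FPKM.

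Spread between cells was read against the trend of squared CV on mean level, over 6011 protein-coding genes averaging at least 10 FPKM. A gene is called uneven here when its squared CV is at least 3 times the trend. This held for 384 genes, 6.39%. All 12 visceral endoderm genes above that mean were uneven, as were 6 of 8 extraembryonic ectoderm genes and 4 of 6 primitive streak genes. Of 23 G2/M genes and 19 G1/S genes, 0 were uneven, and of 16 glycolysis genes 2 were, Slc2a1 and Slc2a3. Among 20 primed genes 3 were uneven (Slc7a3, Dnmt3a and Dnmt3b), and among 11 core genes 2 (Tdgf1 and Dppa4).

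**Figure D2:**
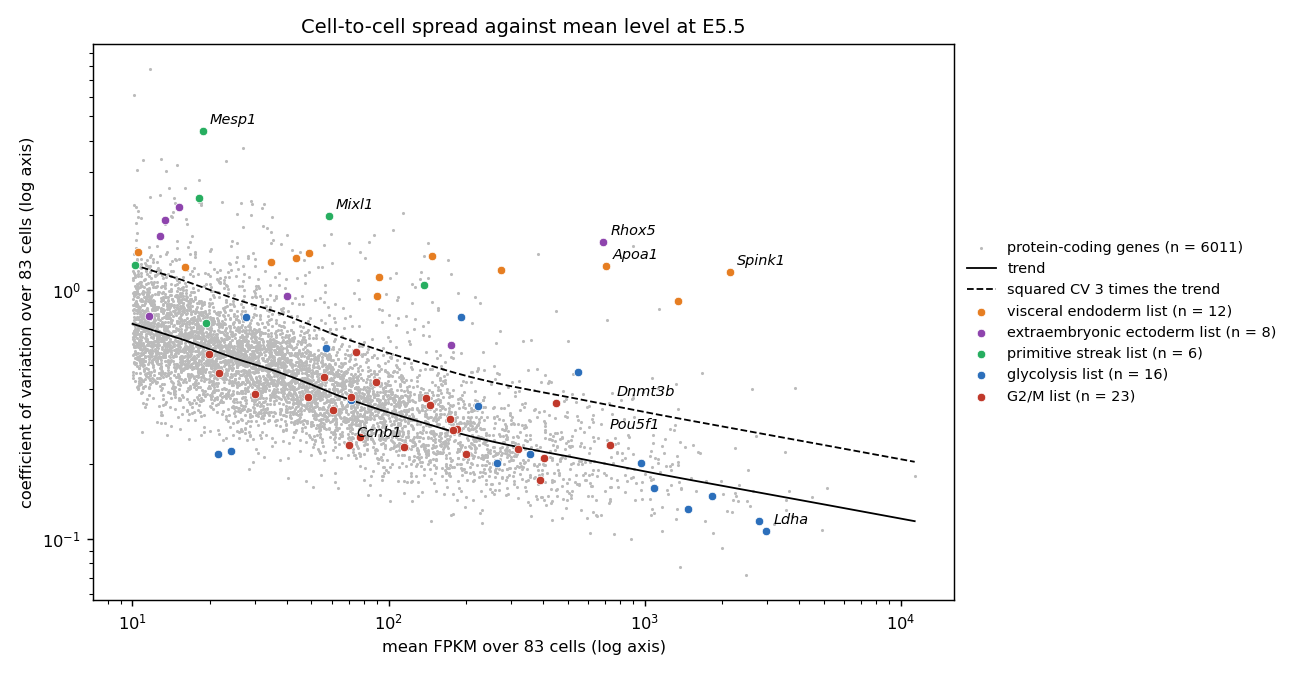
Coefficient of variation against mean FPKM over 83 E5.5 cells for 6011 protein-coding genes (both axes log), with the trend (solid line), 3 times the trend in squared CV (dashed line) and the genes of 5 lists in colour. The 12 visceral endoderm genes lie above the dashed line, and the G2/M genes all lie below it.

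Genes with the largest excess fell into kinds that single cells, small groups of cells or graded levels produced. Gm17364 was detected in 2 cells and had 83.5% of its summed FPKM in 1 of them, and Notch1, a receptor gene, had 65.96% in 1 of the 23 cells that detected it. Such cases were few. Of the 384 uneven genes, 2 had at least 50% and 17 at least 20% of their summed FPKM in 1 cell. Apoc2, an apolipoprotein gene with 61.8 times the trend, and Rhox5, with 60.1 times, were detected in 82 cells each. Rhox5 is one of a family of similar X-linked genes, which makes its assignment uncertain. The microRNA-processing gene Dgcr8 had 43.6 times the trend, at 1.20 to 1140 FPKM around a median of 20.1, and Gsto1, a glutathione transferase gene, had 37.8 times, at 59.2 to 2621 FPKM. At the other end were housekeeping genes, led by the mitochondrial import receptor gene Tomm20 at 0.139 of the trend, with all 83 cells between 16.1 and 42.7 FPKM.

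Signalling lists were small, and their counts of uneven genes stand beside 384 of 6011 (6.39%) over all protein-coding genes compared. Of the genes averaging at least 10 FPKM these were 3 of 7 for Nodal signalling, 2 of 12 for FGF and ERK, 0 of 6 for Wnt and 4 of 4 for BMP and Id genes. Nodal, the TGF-beta ligand that keeps the epiblast pluripotent and patterns it, ran from 0 to 180 FPKM with a median of 27.7 and was detected in 78 cells. Its transcriptional mediator Foxh1 was even, at 33.2 to 226.1 FPKM in all cells (median 119.4). The feedback inhibitor genes were patchy, with Lefty2 at 0 to 349.6 FPKM (median 6.25, 67 cells), Lefty1 detected in 61 cells and Cer1 in 54. Nodal was high where the FGF ligand gene Fgf8 was high (rho 0.70), and Lefty1 where Cer1 was (0.61), while Nodal and Lefty2 had a rho of 0.35.

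Fgf8 ran from 0 to 576 FPKM with a median of 84.5 and was detected in 77 cells, and Fgf15 was detected in 81. Fgf4, the ligand of the blastocyst, was detected in 27 cells and did not exceed 5.92 FPKM. Targets of the FGF and ERK pathway were broad, with the feedback genes Dusp6 (median 80.8), Spry2 (72.8) and the ETS genes Etv4 and Etv5 in all cells. Bmp4, a ligand of the extraembryonic ectoderm, was detected in 60 cells, from 0 to 334 FPKM with a median of 6.56. Its target Id3 was in every cell at 36.2 to 674 FPKM with a median of 305, and Id1 and Id2 were detected in 78 and 79 cells. Bmp4 and all 3 Id genes were uneven. Of the Wnt genes, beta-catenin (Ctnnb1) ran from 33.4 to 194 FPKM in all cells.

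Primitive streak genes were high in a few cells. T (Brachyury, ENSMUSG00000062327, chromosome 17), the T-box factor of the streak, was detected in 64 cells but had a median of 5.504 FPKM, and reached 50 FPKM or more in 7. Mixl1 (ENSMUSG00000026497, chromosome 1), a homeobox factor of mesendoderm, ran from 0 to 813 FPKM with a median of 19.2, and reached 100 FPKM in 11 cells, 6 of them among the 7. Mesp1 (ENSMUSG00000030544, chromosome 7), a factor of nascent mesoderm, was detected in 37 cells and reached 50 FPKM in 3, each of them among the 7. Over all cells the Spearman correlation was 0.70 for T with Mixl1, 0.61 for Mixl1 with Mesp1 and 0.54 for T with Mesp1, and 0.17 for T with Apoa1. Taken as lists, streak genes had a rho of 0.53 with visceral endoderm genes and 0.71 with parietal endoderm genes.

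The male cell numbered 76 held the highest T (299.6), Mixl1 (813) and Mesp1 (599 FPKM) of all 83. It also had Fgf8 at 491, the epithelial-mesenchymal factor gene Snai1 at 410 and the highest Pou5f1, 1098 FPKM, while Pou3f1 was 0.233 FPKM. The male cell numbered 49 followed, with T at 191, Mixl1 at 579, Mesp1 at 450, Lhx1 at 137.6 and Lefty2 at 349.6 FPKM. It had Pou5f1 at 455 and Cdh2, the cadherin gene of mesoderm, at 34.3 FPKM, the highest of any cell. Cell 49 also had Spink1 at 8978 and Apoa1 at 1557 FPKM. Its sum of visceral endoderm markers, described below, was 2988 FPKM, the highest of any male cell, against 585 in cell 76. Mesp2 reached 155 FPKM in cell 49, and 70.7 in cell 76. Eomes, a T-box factor that is on both the streak and the extraembryonic ectoderm list, was broad by contrast, detected in 82 cells at up to 68.8 FPKM.

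Transcripts typical of visceral endoderm were found in every E5.5 cell. Spink1 (ENSMUSG00000024503, chromosome 18), a secreted protease inhibitor gene, had a lowest value of 11.9, a median of 1230.4 and a highest of 16417 FPKM. Apoa1 ranged from 3.58 to 6049 with a median of 386, and Apoe from 150 to 7336 with a median of 895 FPKM. The thyroid hormone carrier gene Ttr was detected in 82 cells (median 172), and the retinol carrier Rbp4 and the endocytic receptor subunit Amn in 81 each (medians 73.9 and 46.9). Transcription factor genes of the same tissue were lower and patchier, with Sox17 detected in 61 cells, Gata4 in 53, Foxa2 in 49, Hnf4a in 45 and Gata6 in 19, where it did not exceed 4.96 FPKM. The products varied together, with rho of 0.94 for Spink1 with Apoa1, 0.96 for Apoa1 with Ttr, 0.95 for Apoa1 with Rbp4 and 0.91 for Ttr with Amn.

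The summed FPKM of 12 visceral endoderm markers ranged from 30.7 to 11150 per cell with a median of 805, and each cell detected 5 to 12 of the 12. The sum of 8 epiblast markers in the same cells ranged from 1000.4 to 3536 with a median of 2665, and each cell detected 7 or 8 of them. The cell with the highest endoderm sum, a female cell, had Pou5f1 at 274.9, Otx2 at 64.6 and Dnmt3b at 362 FPKM. For comparison, the endoderm sum was 0.504 to 491 (median 106.3) in E4.5 cells and 0 to 839 (median 42.4) in male Epi cells, in tables normalised separately. What part RNA from neighbouring cells or mixed captures has in these values was not tested.

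Extraembryonic ectoderm genes were also graded. Rhox5 was detected in 82 cells, from 0 to 5082 FPKM with a median of 264.1. Tfap2c was detected in 57 cells with a highest value of 146.5, Elf5 in 47 (47.2), Gata3 in 37 (212) and Cdx2 in 34 (58.97 FPKM), the factors of the trophoblast lineage. The keratin genes Krt8 and Krt18 were detected in 82 and 83 cells. The sum of 9 markers ranged from 3.41 to 505.1 per cell with a median of 33.5. The male cell numbered 26 held the highest sum together with the highest Zfp42, 109.1 FPKM, and had Pou5f1 at 147.2, Otx2 at 17.4 and Fgf5 at 0.806, the lowest Fgf5 of all cells. The lowest Pou5f1, 97.1 FPKM, was in a female cell, which had the highest Rhox5.

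Marker sets of other tissues ranged from absent to present in every cell. The sum of 4 parietal endoderm markers ran from 38.4 to 576 FPKM with a median of 195, of which the matrix gene Sparc was in all 83 cells, at 38.4 to 436 FPKM, and Thbd in 0. The sum of 3 neural markers had a median of 17.8 and a highest value of 53.1 FPKM, with the tubulin gene Tubb3 in 80 cells and Sox1 in 0. The sum of 11 decidua markers had a median of 14.7 and a highest value of 401 FPKM, and the decidual prolactin gene Prl8a2 was detected in 34 cells at up to 220 FPKM. Among 7 blood markers Hbb-bt, Ptprc and Tyrobp were at 0 in all cells, and the sum did not exceed 25.6. The sum of 5 endothelial markers did not exceed 32.7 FPKM.

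**Figure D3:**
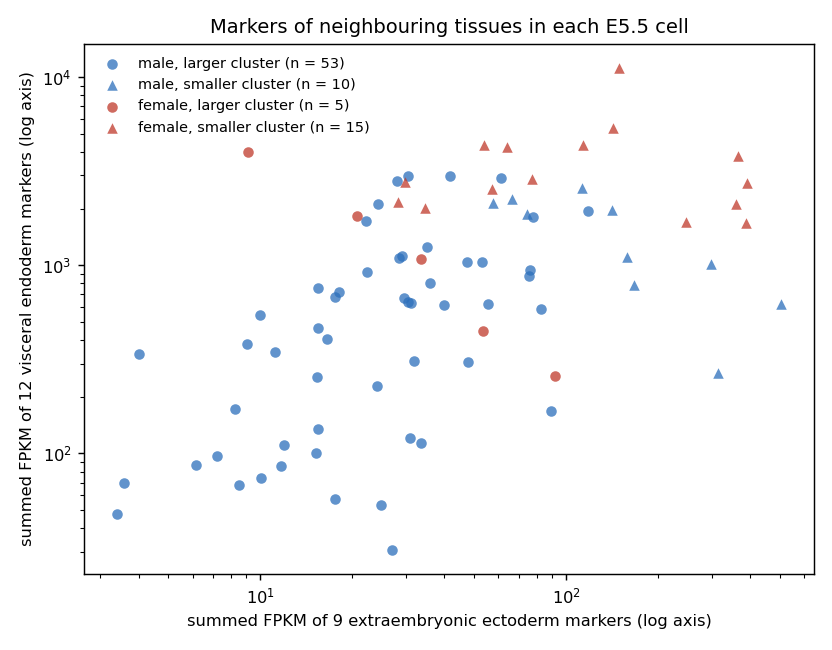
Summed FPKM of 12 visceral endoderm markers against that of 9 extraembryonic ectoderm markers in each of 83 E5.5 cells (both axes log), coloured by sex and shaped by cluster. Cells high in both sums are mostly triangles, the 25 cells of the smaller cluster, and endoderm sums run from 30.7 to 11150.

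Clustering on 1000 of the genes with the largest excess split the cells into 25 and 58, with a mean silhouette of 0.291. The smaller cluster held 15 female and 10 male cells, and the larger 5 female and 53 male. Since these genes formed the clusters, their differences are a description. Genes were ranked by the log2 ratio of mean FPKM + 1, smaller over larger cluster. The highest included Duoxa2, Tinagl1, Ly6a, Htra1, Bmp4, Plet1, Nr0b1 and Prl8a2, and Gm17374, which was detected in 1 cell only. Only Prl8a2 of those named is in a marker set, so the cluster has no cell type name. Smaller against larger cluster, median Pou5f1 was 447 against 797, Otx2 68.97 against 147.2, Dnmt3b 460 against 834 and Fgf5 63.1 against 94.95 FPKM. Median Rhox5 was 1368 against 169, Tfap2c 27.8 against 1.63, Zfp42 15.1 against 2.27 and Apoa1 1114 against 260. All 25 cells had Pou5f1 of at least 97.1 FPKM, within a range that overlapped that of the other cells.

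Within the larger cluster alone, all 10 visceral endoderm genes with enough signal were still uneven, while 1 of 4 extraembryonic ectoderm genes was. There 307 of 5969 genes were uneven, 250 of them shared with the set over all cells. Dnmt3b and Dnmt3a, at 3.11 and 3.71 times the trend over all cells, were at 1.82 and 2.58 times there. The streak list had 5 of 6 genes uneven in the larger cluster. In male cells alone the counts were 11 of 11 for visceral endoderm, 2 of 6 for extraembryonic ectoderm and 5 of 6 for the streak. Over all protein-coding genes compared in male cells 337 of 5985 (5.63%) were uneven.

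Sex labels matched the sex-linked genes. The Y-linked genes Ddx3y, Eif2s3y, Uty and Kdm5d were at 0 in all 20 female cells, which allows a share of up to 15%, and Eif2s3y ran from 4.92 to 112.5 FPKM in all 63 male cells. Xist, the RNA that coats the inactive X chromosome, was at 0.744 to 30.4 FPKM in female cells (median 6.93, detected in 19) and was detected in 5 male cells at up to 3.78. Its antisense partner Tsix had a median of 16.4 FPKM in female cells and was detected in all 20. Without a stated use of strand, reads of these overlapping genes cannot be told apart.

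Female and male cells were compared as 2 single samples by the log2 ratio of mean FPKM + 1, less the median over genes of 0.03. At least 2-fold higher in female cells were 466 of 11453 protein-coding genes, 4.07%, and 1.12% were at least 2-fold lower. Of 19 visceral endoderm genes 15 were higher, and of 17 extraembryonic ectoderm genes 11, with 0 lower in either list. Of 26 primed genes 0 passed 2-fold, and of 14 streak genes 5 were lower. Without the 2 male cells with the highest T, an alternative chosen after seeing the data, 0 of 13 streak genes were lower, with Mixl1 at -0.82 and Mesp1 at -0.53. The endoderm sum was 256.7 to 11150 in female cells (median 2638) and 30.7 to 2988 in male cells (median 624), and the decidua sum had medians of 48.2 and 12.1, so the ranges overlap.

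Among genes higher in female cells, the surface antigen gene Ly6a had the largest difference, 4.11 on the log2 scale, at 3.89 to 887 FPKM in female cells (median 51.7) against 0 to 105.7 in male cells (median 0). Prl8a2 differed by 3.47 and the epidermal genes Dmkn and Krtdap by 3.35 and 3.02. Apoa1 was higher by 1.87, from a median of 284.1 FPKM in male to 1163 in female cells. Lower in female cells, beside the Y-linked genes, were Chac1, a glutathione-degrading enzyme of the stress response (-3.75), Ica1 (-1.89), the immediate early gene Fos (-1.61) and Mixl1 (-1.33). Pou5f1 had a median of 443 FPKM in female and 776 in male cells, a log2 difference of -0.69 that did not reach 2-fold. Without the 25 cells of the smaller cluster, which leaves 5 female and 53 male cells, 452 genes were higher and 547 lower, and 27.7% and 13.7% of these were shared with the sets over all cells. Ly6a (3.61) and Apoa1 (1.30) then stayed past 2-fold, while Prl8a2 (0.49), Spink1 (0.56), Zfp42 (0.29) and Mixl1 (-0.31) did not, and Bmp4 and Krt8 turned from 2.03 and 1.18 to -0.28 and -0.33.

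The E4.5 and E5.5 cells were set side by side to describe the epiblast before and after implantation. Each stage is 1 sample from its own table, and stage, cross and table cannot be told apart. The E4.5 cells had a lower FPKM sum (median 511794 against 1016540), and the median gene was 1.02 higher at E5.5 on the log2 scale, so differences are given after subtracting that. The E4.5 cells also carried markers of other blastocyst lineages, with the keratin gene Krt18 at a median of 889 FPKM, Cdx2 detected in 20 of 23 cells and Gata6 in 19. At least 2-fold higher at E5.5 were 2069 of 11802 genes, 17.5%, and at least 2-fold lower 2609, 22.1%.

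Primed genes were mainly higher and naive genes mainly lower at E5.5. Of 26 primed genes 20 were higher and 1, Foxd3, was lower. Fgf5 and Fgf15 were listed at 0 in all 23 E4.5 cells. Otx2 was higher by 3.67, from a median of 0.228 FPKM (highest 31.6) to 125.6, and the ranges overlapped between 10.5 and 31.6 FPKM. Dnmt3b was higher by 3.43, with a median of 22.4 and a highest value of 153 FPKM at E4.5 against 132.3 to 1279.7 FPKM, and Dnmt3a by 2.87. Pou3f1 did not exceed 1.20 FPKM at E4.5 and was higher by 2.44. Pou5f1 itself differed by 0.14, with medians of 230 and 730.2 FPKM, and by 1.16 before the median was subtracted.

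Of 15 naive genes 14 were lower at E5.5 and 0 higher. Tcl1 and Nr5a2 were detected in 16 and 21 of 23 E4.5 cells and listed at 0 at E5.5. Dppa3 (Stella), which protects maternal DNA methylation, was lower by 7.17, from 5.32 to 725 FPKM (median 240) at E4.5 to at most 22.95. Klf5 differed by -5.96, Tet2 by -4.67, Klf2 by -4.36, Klf4 by -4.35 and Zfp42 by -3.44. Every E4.5 cell had Klf5 at 27.1 FPKM or more and no E5.5 cell exceeded 17.9. Nanog (-1.95) and Sox2 (-1.61) were lower by less, and neither passed 2-fold before the median was subtracted. The largest differences down included the homeobox gene Crxos (-9.83), at 40.96 to 884 FPKM at E4.5 and at most 1.53 at E5.5, and the maternal-effect gene Khdc3, at 35.1 to 1137 FPKM at E4.5 and listed at 0 in all E5.5 cells.

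Of 17 glycolysis genes 14 were higher at E5.5 and 1, Pfkp, was lower, with a median difference of 2.80. Ldha differed by 6.09, from 0 to 79.95 FPKM (median 11.0) at E4.5 to 2287 and above. Eno1 differed by 5.84, Pkm, the pyruvate kinase gene, by 4.58, and the lactate exporter gene Slc16a3 by 7.19. No E5.5 cell overlapped an E4.5 cell in Ldha or Eno1. These are FPKM of separately normalised tables, and the share of all genes without overlap is not given here. Of 25 G2/M genes 14 were higher and 0 lower, and of 20 G1/S genes 12 higher and 1, E2f1, lower.

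Of 24 adhesion and polarity genes 14 were lower after the median was subtracted, among them the laminin genes Lama1 (-4.10), Lamc1 (-2.68) and Lamb1 (-2.29) of the basement membrane and the tight junction gene Cldn4 (-5.13). Higher in that list were Cldn6 (2.62) and the lumen-lining Podxl (2.98). In the visceral endoderm list 12 of 20 genes were higher at E5.5 and 4 lower, and these were of different kinds. Products such as Spink1 (9.40) and Apoa1 (7.09) were higher, with Ttr, Rbp4 and Afp listed at 0 in all E4.5 cells, and the regulators Gata6 (-4.42), Sox17 (-2.01), Sox7 (-1.74) and Gata4 (-1.30) were lower. Of these 4 regulators Gata6 alone passed 2-fold before the median was subtracted, at -3.40. Streak genes were higher in 8 of 14, with T, Mesp1 and Fgf8 listed at 0 in all E4.5 cells.

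**Figure D4:**
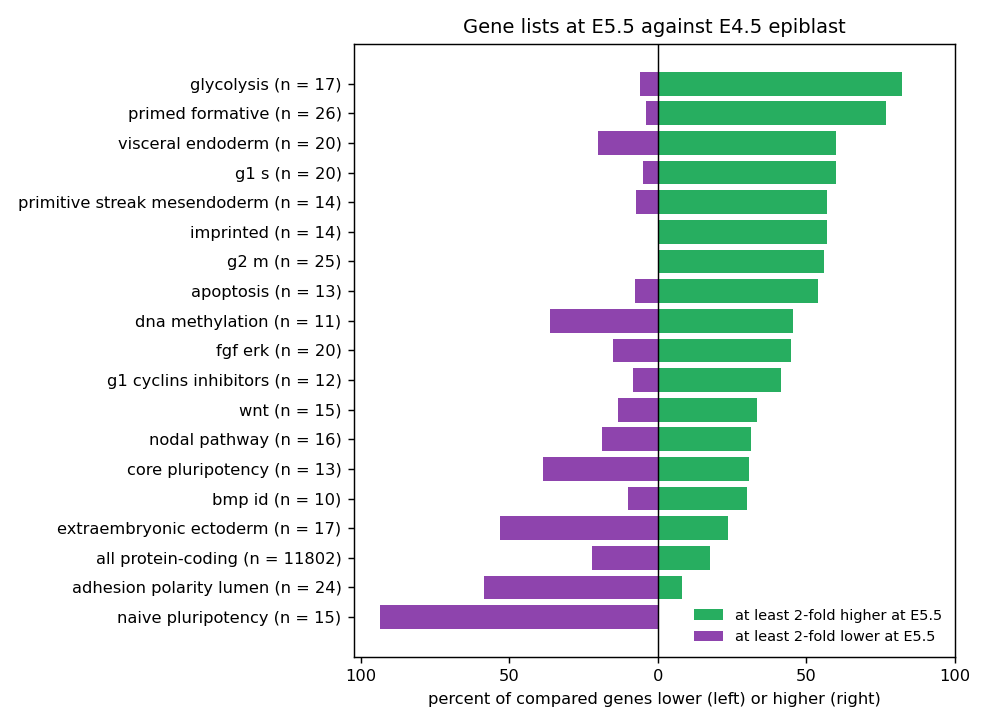
Percent of the compared genes of each list that were at least 2-fold higher (green, right) or lower (purple, left) at E5.5 than at E4.5 after the median difference of 1.02 was subtracted, with the number of genes in brackets. Glycolysis and primed genes lie mostly to the right, naive genes to the left, beside 17.5% and 22.1% for all protein-coding genes.

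The male Epi culture is a cultured counterpart of the postimplantation epiblast, from a line with a CAST/EiJ father, and is 1 sample. Its cells were mixed in Pou5f1, at 0 to 1179 FPKM with a median of 219 and a CV of 0.90. Female Epi cells had a median of 1094 FPKM and a CV of 0.42. The differences below are therefore from the male culture only, and whether they hold for other epiblast stem cells was not tested. Its Y-linked genes were patchy, with Uty detected in 49 of 63 cells, Ddx3y in 32, Eif2s3y in 12 and Kdm5d in 0, and Xist in 1. The median gene was 0.16 higher at E5.5 and that shift is subtracted. At least 2-fold higher at E5.5 were 1167 of 11793 genes, 9.9%, and at least 2-fold lower 1299, 11%.

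Of 15 streak genes 13 were lower at E5.5 and 1, Fgf17, was higher. T had a median of 88.5 FPKM in Epi cells against 5.504 at E5.5, a difference of -3.18 between means. Mixl1 differed by -3.44 (median 403 against 19.2), Mesp1 by -2.97, Gsc by -3.26 and Lhx1 by -4.78. The ranges overlapped for T, Mixl1 and Mesp1. Eomes was lower by 1.35, and the mesoderm receptor genes Aplnr and Cxcr4 by 5.35 and 5.40. The intermediate filament gene Vim was also lower, with a difference of -3.65, as was Cdh2 (-3.21), while Cdh1, the epithelial cadherin, was higher by 1.86.

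The markers Otx2 (-0.55) and Fgf5 (-0.91) did not pass 2-fold, Pou5f1 was 0.94 higher and passed 2-fold in 4 of 8 alternative settings, and Pou3f1 was 2.38 higher. Utf1 differed by 5.88, detected in 14 of 63 Epi cells with a median of 0.158 FPKM against 767 at E5.5. Dnmt3b was higher by 3.34 and Dnmt3a by 2.97, with medians of 45.2 and 34.4 FPKM in Epi cells. Their cofactor Dnmt3l was higher by 4.15, detected in 2 Epi cells and 74 E5.5 cells. Of 17 glycolysis genes 15 were higher and 0 lower, among them Eno1 (2.16), Slc2a1 (2.11), Pkm (1.23) and Ldha (1.05). Of 16 Wnt genes 6 were lower and 0 higher. Rhox5 was 6.80 and Apoa1 8.52 higher at E5.5.

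Spread between cells was set beside the other groups over 3182 protein-coding genes averaging at least 10 FPKM in each group. The median CV at E5.5 was 0.34. It was 0.36 and 0.37 in female and male 2i cells, 0.53 and 0.49 in serum, 0.50 and 0.52 in Epi, 0.45 in the female Epi culture of 7 passages, 0.64 at E4.5 and 0.66 at E3.5. It was 0.77 in female motor neuron cells, the highest of these groups, and 0.65 in male ones. The values of E5.5 and 2i lie close together, and E5.5 kept 0.34 in male cells alone and without the 25 cells. For G2/M genes the median CV was 0.35 at E5.5, 0.37 and 0.39 in 2i, 0.79 at E4.5, 0.78 in male Epi and 1.05 and 1.30 in motor neuron cells. Glycolysis genes had a median CV of 0.21 at E5.5, and the next lowest was 0.29 in male 2i cells. Read depth per cell is unknown. The E5.5 cells detected more genes (median 10671) than cells at E4.5 (8754) or in male Epi (9355).

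**Figure D5:**
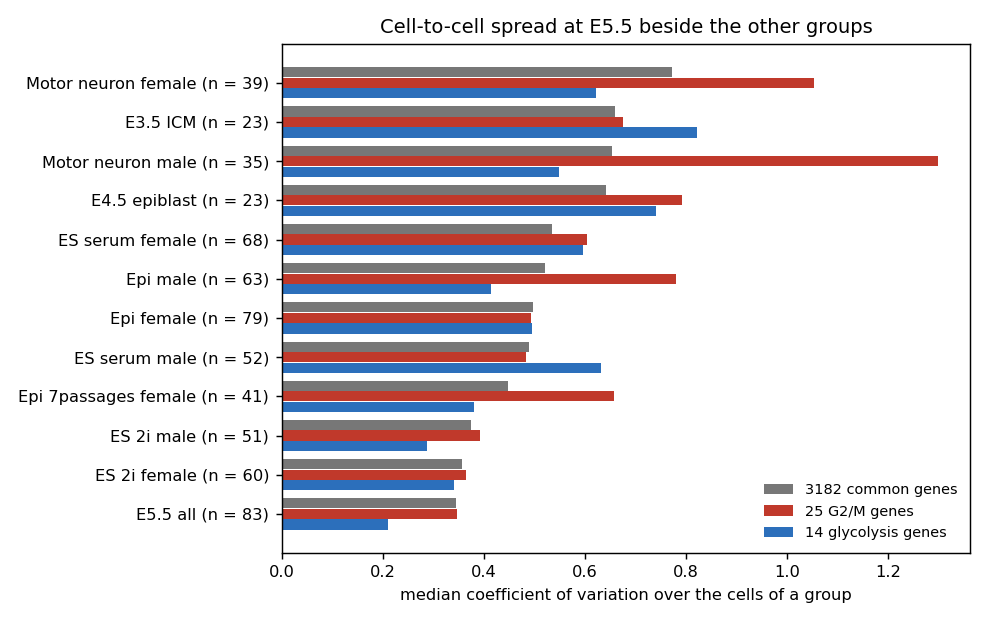
Median coefficient of variation over the cells of each group for 3182 common genes (grey), 25 G2/M genes (red) and 14 glycolysis genes (blue), with the number of cells in brackets. E5.5 has the lowest bar of each colour, at 0.34, 0.35 and 0.21, next to the 2i cultures.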

How the data were processed

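RNA of 617 single cells, 83 of them E5.5 epiblast, was sequenced after SMART-seq2 and tagmented with Tn5 per the labels' protocols. The authors deposited FPKM per gene and cell. The submitters' processing notes name STAR 2.4.1, Cufflinks, Cuffnorm 2.2.1 and mm10, with no role or order given. What the FPKM is scaled to, the annotation, the use of strand and any cell filter are not given in the sources used here. Tables were normalised and deposited separately, so levels across tables include any difference in that scaling, and FPKM carries no read depth.

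Of 43628 gene IDs, 42548 matched GENCODE vM21, and 21533 protein-coding genes with 1 symbol were used. Promoter letters came from RefSeq (GRCm38.p6). Spread was the squared CV against a lowess trend (fraction 0.3) on mean, both as log10. Cells were clustered with Ward's method on 10 principal components of log2(FPKM + 1), with 2 to 8 clusters tried and the highest silhouette taken. Group differences were log2 ratios of mean FPKM + 1, keeping genes that averaged 1 FPKM or more in either group, less the median. The pseudocount of 1 understates changes of low genes. With 1 sample per arm no test was made. Calculations were checked on simulated data. Python 3.11.15 with numpy 2.4.6, pandas 2.3.3, scipy 1.17.1, statsmodels 0.14.6 and scikit-learn 1.9.0 was used.

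The named genes are the members of the gene lists and, in addition, the genes with the highest mean, the largest and smallest excess of spread, detection in 20 to 80% of cells with the highest level, the 5 most like each marker, and the 10 with the largest difference each way in a comparison. The 2 cells named beside streak genes, and those with extreme sums or markers, were chosen after their values were seen, as was Snai1. The cells, the lists and the comparisons were chosen with earlier results of these data known. An item that is withheld is not reported here. The alternatives tried are given in the closing section.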

Additional observations from a re-analysis of the deposited data

How the results depend on the processing

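No paired analysis was possible because no result comes from a test and the labels give no replicate numbers. The share of cells with all 4 markers was 100% at a threshold of 0.1 FPKM, 89.2% at 5 FPKM and 100% in female cells only, against 96.4%. Female against male cells, the 466 genes higher and the 1.12% lower became 825 and 347 genes with a pseudocount of 0.1 and 307 and 57 with a minimum mean of 5 FPKM. Averaging log2 values over cells left 72 lower. Leaving out the 25 cells of the smaller cluster, leaving out each gene's highest cell, leaving out the 2 cells with the highest T, and using male E5.5 cells only against male Epi were alternatives chosen after seeing the data. Without the 25 cells 547 genes were lower in female cells, the higher genes made up 45.2% of those past 2-fold against 78.5%, and Bmp4 (-0.28) and Krt8 (-0.33) changed direction. Against E4.5, leaving the median difference in gave 6007 higher and 1090 lower, so that 84.6% were higher against 44.2%, and a minimum mean of 5 FPKM gave 1727 lower. Against male Epi that minimum gave 752 higher, and leaving the median in raised the higher share from 47.3 to 60.7%. The count of 384 uneven genes ranged from 290 to 475 over its alternatives. With 500 genes the smaller cluster had 32 cells, with 2000 genes 3 clusters formed, and with 5 components 5 clusters formed, of which the one nearest to the 25 cells had 23, with 17 shared. Depth limits what can be said of genes near 1 FPKM. The cause of these shifts was not tested.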

Other observations

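Imprinted genes, whose expression depends on the parent of origin, were described from a list. Of 19 listed, 6 were detected in all 83 cells and 14 in at least 50%, beside 18.4% and 43.5% of all protein-coding genes. Snrpn ran from 78.2 to 575 FPKM (median 367), Meg3 from 46.7 to 498 (median 163), Mest from 34.8 to 380 (median 144.2) and Grb10 from 7.43 to 191 (median 52.7). H19, Igf2 and the placental growth regulator Phlda2 had higher medians in female than in male cells, with medians of 305, 48.2 and 198 FPKM in female cells and 50.8, 9.44 and 48.9 in male cells. Their medians were 302, 57.4 and 267.5 FPKM in the smaller cluster, which holds 15 of the 20 female cells, and 46.2, 5.86 and 43.8 in the larger, and the part of sex in this was not tested. Against E4.5, 8 of 14 compared were at least 2-fold higher and 0 lower. Zim1 was detected in 1 cell.

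Genes of the mitochondrial death pathway ranged from abundant to rare. Trp53 (p53) ran from 234.4 to 530 FPKM (median 342, CV 0.18) and the death effector gene Bax from 240.98 to 756 (median 460.1, CV 0.18), both in all cells. Pmaip1 (Noxa) was in all cells with a median of 53.99 FPKM, against 9 of 23 cells at E4.5, and the protective gene Bcl2 was detected in 7 cells. Of 14 apoptosis genes 9 averaged at least 10 FPKM, beside 6011 of all 21533 protein-coding genes. Cycs, Bak1 and Apaf1 had medians of 1.48, 3.57 and 3.59. Among immediate early genes Ier2 was in all cells (median 79.7) and Fos in 78 (median 23.8), while the heat shock gene Hspa1b reached 1 FPKM in no cell.

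Maintenance and opposing enzymes of DNA methylation were also present. Uhrf1 (median 125.3) and Dnmt1 (36.5) were in all cells, as was the oxidase gene Tet1 (12.8 FPKM), and Tet3 was in 61. Dnmt3l was detected in 74 cells and was uneven. Of 12 germline genes known to be methylated in somatic tissue, 10 were detected in fewer than 50% of cells, beside 56.5% of all protein-coding genes. Sycp3, a meiotic chromosome axis gene, was in 77 cells with a median of 10.8 FPKM, and the RNA helicase gene Ddx4 was in 58. The primordial germ cell genes Prdm1 and Nanos3 were detected in 10 and 4 cells.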
